A study of Mus musculus with 2 samples.

Results

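Dendritic-like cells were taken from single-cell libraries of mouse cochleae as barcodes rich in MHC class II transcripts that carried almost no transcripts of C1q macrophages, B cells or Spp1-rich macrophages. A barcode with at least 200 detected genes and at most 10% mitochondrial UMIs (unique molecular identifiers, 1 per captured transcript) was a member when it held at least 50 UMIs of H2-Aa, H2-Ab1, H2-Eb1 and Cd74 together. It also had to hold at most 1 UMI of C1qa, C1qb and C1qc, fewer than 3 of Cd79a and Cd79b, and fewer than 5 of Spp1, Gpnmb, Mmp12 and Mfge8. Of 6662 barcodes past the cell filter, 132 were members, 70 of 3149 after implantation and 62 of 3513 without it. The rule used measured values of these same barcodes, so the levels of its genes describe the choice and are not findings.

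Both libraries held CD11b-selected cochlear cells of C57BL/6J/B6 mice of genotype CX3CR1+/GFP Thy1+/YFP, with males and females pooled. The treated group carried an electrode in the cochlea and was taken 33 days after surgery, and the other group was not implanted, each with 1 library. The labels do not say whether the electrode released a drug, whether the non-implanted cochleae were the opposite ears of the same animals, or how many animals were pooled. Itgam, which encodes CD11b, had 0 UMIs in implanted members and 3 in those of the other library, so its transcript cannot be used to check the bead selection.

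Dendritic cells take up antigen and show its peptides to T cells on MHC class II molecules, which the invariant chain Cd74 guards until peptides are loaded. Conventional dendritic cells depend on the receptor Flt3 and carry the transcription factor Zbtb46. They fall into a type 1 lineage marked by the chemokine receptor Xcr1 and a type 2 lineage. Monocytes can also become antigen-presenting cells, and the lectin Cd209a is found on both monocyte-derived and type 2 cells. Ccr7 guides mature dendritic cells to lymph nodes, and Siglech marks plasmacytoid dendritic cells, which make type I interferon.

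MHC class II genes share promoter elements called the X and Y boxes, through which the coactivator Ciita acts. The windows of 150 bases before the RefSeq start (build GRCm38.p6, chromosome 17) are shown because the gate genes varied together over the members and because H2-Oa separated members with and without dendritic cell transcripts, as described below. Capitals mark the Y box core CTGATTGG and, in H2-Eb1, also a form of the X box, each searched on both strands and not overlapping the other. The H2-Aa window (chr17:34287824-34287973, minus strand) precedes the alpha chain gene of I-A, the H2-Eb1 window (chr17:34305717-34305866, plus strand) precedes the beta chain gene of I-E, and the H2-Oa window (chr17:34092229-34092378, plus strand) precedes the alpha chain gene of H2-O, which restrains peptide loading. Of the genes searched, H2-DMa, H2-DMb1, H2-DMb2 and H2-Ob held no exact match to either set of letters in this window. Forms with a changed letter were not searched, so these genes may still hold such boxes. H2-Ob, like H2-Oa, was at least 2-fold higher in members with dendritic cell transcripts in both libraries. H2-Ab1 and Ciita were not matched in the sequence table.
H2-Aa: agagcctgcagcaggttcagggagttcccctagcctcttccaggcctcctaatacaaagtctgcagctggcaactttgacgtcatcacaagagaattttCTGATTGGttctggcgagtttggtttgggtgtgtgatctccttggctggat
H2-Eb1: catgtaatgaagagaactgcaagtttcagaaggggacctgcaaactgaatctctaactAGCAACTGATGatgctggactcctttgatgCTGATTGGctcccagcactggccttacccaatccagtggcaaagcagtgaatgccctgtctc
H2-Oa: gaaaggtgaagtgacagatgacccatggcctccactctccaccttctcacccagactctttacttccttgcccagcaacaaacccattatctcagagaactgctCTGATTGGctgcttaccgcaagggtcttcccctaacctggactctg
The Y box core began 51 bases before the start in H2-Aa, 62 bases before it in H2-Eb1 and 46 bases before it in H2-Oa. The X box form stood 92 bases before the H2-Eb1 start. Of 32851 promoter windows of the same length, 3.16% held the Y box core and 0.0335% held the X box form. A match describes letters in the window and not a bound site.

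The members differed widely in MHC class II content although all passed the same gate. The 4 gate genes took 0.630% to 11.9% of a member's UMIs in the implanted library, with a median of 3.83%, and 0.474% to 12.04% in the non-implanted library, with a median of 4.12%. Cd74 alone had a median of 2.18% and 2.38% of UMIs, and H2-Aa, the alpha chain gene, 0.686% and 0.752%. Over the members the shares of the 4 genes ordered the cells alike, with Spearman correlations of 0.910 to 0.953 over 70 implanted members and 0.905 to 0.939 over 62 non-implanted members. These points share a library and the gate itself, and the correlations are descriptions only. Just inside the lower limit, 3 implanted and 2 non-implanted members held 50 to 59 gate UMIs, and 3 and 4 barcodes just outside it held 40 to 49.

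Members were deeply sampled for these libraries. Their median depth was 7121.5 UMIs and 2719.5 genes in the implanted library and 7640 UMIs and 2810.5 genes in the non-implanted library, against 4371 and 4238 UMIs over all barcodes past the filter. Summed over members there were 540578 and 532904 UMIs. The libraries shared 6 barcode sequences, of which 0 were members. With 1 library per group there were no replicates and no test was made. The intervals given are 95% intervals that cover counting error only, not the spread between animals or between cells.

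Members made up 2.22% of the implanted barcodes (exact Clopper-Pearson interval 1.74% to 2.80%) and 1.76% of the non-implanted barcodes (1.36% to 2.26%). The difference was 0.458 percentage points, with a Newcombe interval of -0.215 to 1.15 points, and so was not detectable at these cell numbers. Both shares are shares of a CD11b-bead eluate, and the cochlea as a whole was not sampled. C1q-positive MHC class II high barcodes made up 1.97% and 3.16% (difference -1.19 points, -1.95 to -0.430), and whether the 2 classes differ in this respect was not tested.

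The 6 genes that resolve dendritic cells divided the members. Cd209a was detected in 26 of 70 implanted members (37.1%, 25.9% to 49.5%) and in 31 of 62 non-implanted members (50.0%, 37.0% to 63.0%), at 592 and 647 CPM (UMIs per 1000000) over all members. Flt3 was detected in 29 implanted (41.4%) and 32 non-implanted members (51.6%), at 105 and 137 CPM. Zbtb46 was detected in 14 implanted (20.0%) and 17 non-implanted members (27.4%), at 74.0 and 54.4 CPM. The 3 genes often coincided in a cell: 18 and 21 members held both Cd209a and Flt3, and 8 and 10 held all 3.

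The non-implanted share was the higher one for all of these 3 genes, but each difference was within its counting interval. The implanted minus non-implanted difference was -12.9 points for Cd209a (-28.8 to 3.96), -10.2 points for Flt3 (-26.3 to 6.69) and -7.42 points for Zbtb46 (-21.8 to 7.00). When each member was thinned to 2000 UMIs, which left out 1 implanted member, Cd209a was found in 30.4% and 40.3%, Flt3 in 14.5% and 21.0%, and Zbtb46 in 8.70% and 9.68%.

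Neutrophil barcodes, which should lack all 3 transcripts, give the level that free RNA reached. In them Cd209a was detected in 0.222% (5 of 2255) and 0.109% (3 of 2748), Flt3 in 0.576% and 0.400%, and Zbtb46 in 0.222% and 0.0364%, at median depths of 4026 and 3980 UMIs. The members' shares lay far above these. C1q-positive MHC class II high barcodes, which met the other limits but held at least 5 C1q UMIs, carried Cd209a in 2 of 62 and 12 of 111 barcodes. Monocyte comparison barcodes carried Cd209a in 3.48% and 3.54% and Flt3 in 11.3% and 11.6%.

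**Figure D1:**
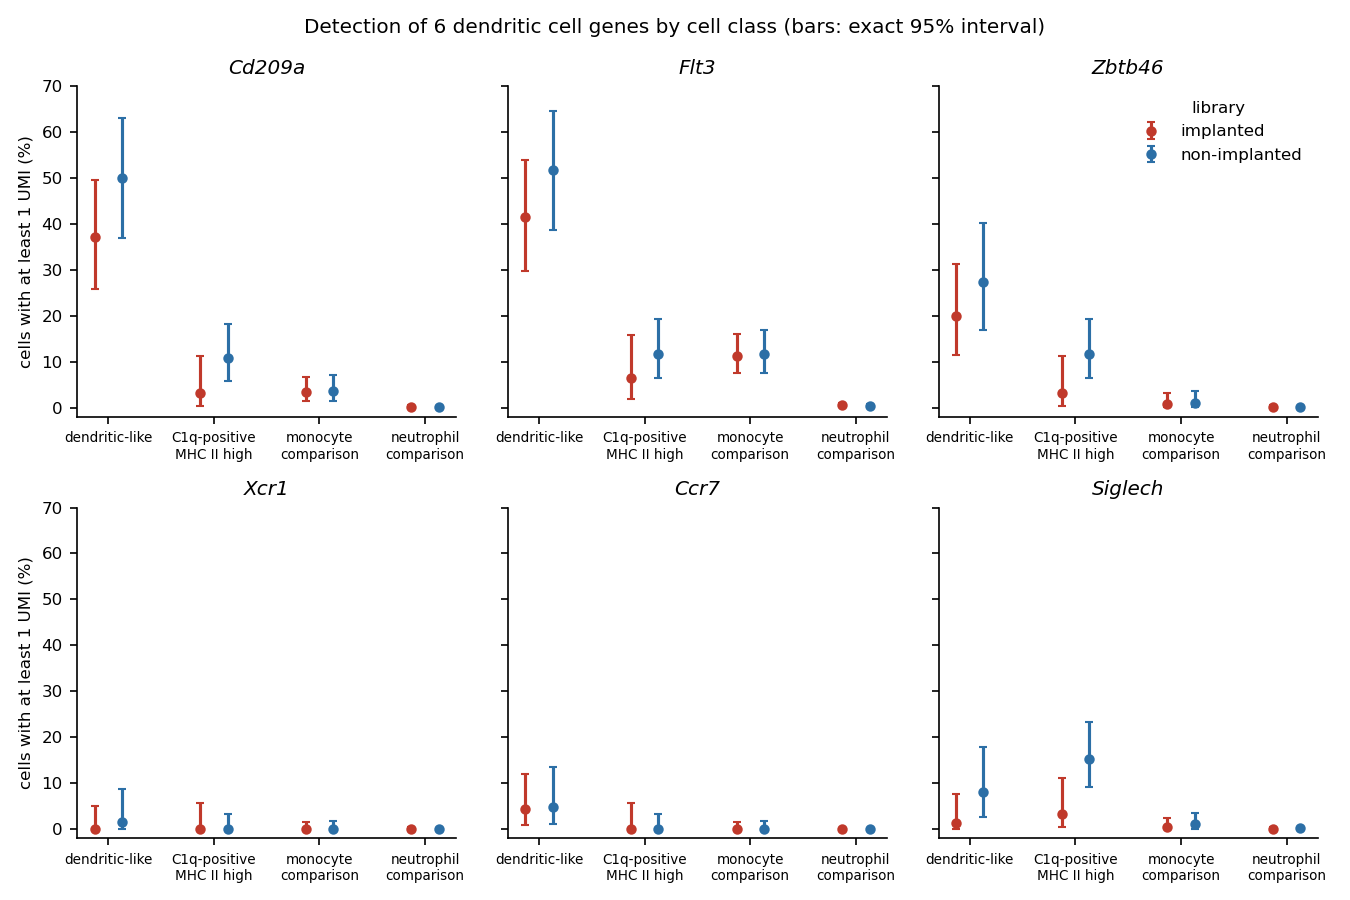
Percentage of barcodes with at least 1 UMI (vertical axis) of 6 dendritic cell genes in 4 cell classes (horizontal axis), by library, with exact 95% intervals as bars. Dendritic-like members carry Cd209a in 37.1% and 50.0%, far above neutrophils, while Xcr1, Ccr7 and Siglech are found in at most 8.06% of members.

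Xcr1, the type 1 lineage marker, was found in 1 member. It had 0 UMIs in 70 implanted members, which allows a share of cells with a UMI of up to 4.29%, and 9 UMIs in a single non-implanted member. That cell also held 6 Flt3, 5 Zbtb46, 4 Clec9a and 16 Cadm1 UMIs, with no Cd209a UMI, so that several type 1 genes met in it. Over all members, 12 of 13 type 1 list genes were detected in the non-implanted library and 7 in the implanted library. C1q-positive MHC class II high barcodes held 11 of them in the non-implanted and 10 in the implanted library. Monocyte comparison barcodes held 10 and 9 in the same order, so detection of the list was not particular to members. A single cell held 25.5% of the list's UMIs in non-implanted members.

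Siglech was found in 1 implanted and 5 non-implanted members (1.43% and 8.06%, difference -6.64 points, -16.2 to 1.09). C1q-positive MHC class II high barcodes held it in 2 of 62 and 17 of 111 (3.23% and 15.3%, difference -12.1 points, -20.3 to -2.53), and neutrophil barcodes in 0.133% and 0.218%. The implanted cell held 49 Siglech UMIs with 20 of Ly6d, 16 of Cox6a2, 19 of Ccr9 and 100 of Tcf4, a transcription factor that directs plasmacytoid fate. In the non-implanted library, 4 cells held 39, 25, 12 and 10 Siglech UMIs, each with Cox6a2 and Ccr9 as well, and the remaining cell held 1 Siglech UMI and neither. Of the 4 cells, 3 also held 5 to 7 Cd209a UMIs, and all 4 held Flt3. All 5 cells with 10 or more Siglech UMIs had MHC class II sums of 70 to 150 UMIs, in the lower part of the members' range.

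Ccr7 was found in 3 members of each library (4.29% and 4.84%). In the implanted library 53 of 65 Ccr7 UMIs lay in a single cell, which held 76 UMIs of Fscn1, the actin-bundling protein of mature dendritic cells, with 21 of Relb and 8 of Ccl22. In the non-implanted library, 1 cell held 4 Ccr7, 32 Fscn1, 16 Ccl22 and 20 Ccl5 UMIs, and another held 6 Ccr7 and 32 Ccl22 UMIs. The other 3 Ccr7 cells had 1, 2 and 11 Ccr7 UMIs and 0 Fscn1 and 0 Ccl22 UMIs. Ccr7 thus met Fscn1 or Ccl22 in 1 implanted and 2 non-implanted cells.

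At least 1 of Cd209a, Flt3 and Zbtb46 was detected in 38 implanted members (54.3%, 41.9% to 66.3%) and 42 non-implanted members (67.7%, 54.7% to 79.1%). These are called marker-positive here. The other 32 and 20 members met the gate without a UMI of these genes. For them the name dendritic-like rests on little but MHC class II. Exceptions were the implanted cell with 49 Siglech UMIs, and 2 implanted and 1 non-implanted cells with Ccr7 UMIs. Marker-positive members were somewhat deeper in both libraries, with medians of 7591.5 and 8063.5 UMIs against 6916 and 6856.5 in marker-negative members. Detection also falls with depth, as thinning to 2000 UMIs lowered Flt3 from 41.4% to 14.5% of implanted members. A marker-negative member may thus carry these transcripts undetected.

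As shares of all barcodes, marker-positive members were equally frequent in the libraries, at 1.21% with the implant and 1.196% without it (difference 0.0112 points, -0.518 to 0.554). Marker-negative members made up 1.02% and 0.569% (difference 0.447 points, 0.0198 to 0.908). The higher total in the implanted library thus lay in the marker-negative members. The interval covers counting error only, and no replicate library shows how such a share varies.

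The gate genes, whose values the rule used and which are given here as a description, took a median of 6.71% and 6.47% of UMIs in marker-positive members and 2.14% and 2.24% in marker-negative members of the implanted and non-implanted libraries. H2-Aa stood at 10064 and 9928 CPM in marker-positive and at 4406 and 5186 CPM in marker-negative members. Ciita, the coactivator of these genes, stood at 173 and 190 CPM against 70.9 and 107 CPM. The ranges overlapped in both libraries, as the plot of single members shows.

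**Figure D2:**
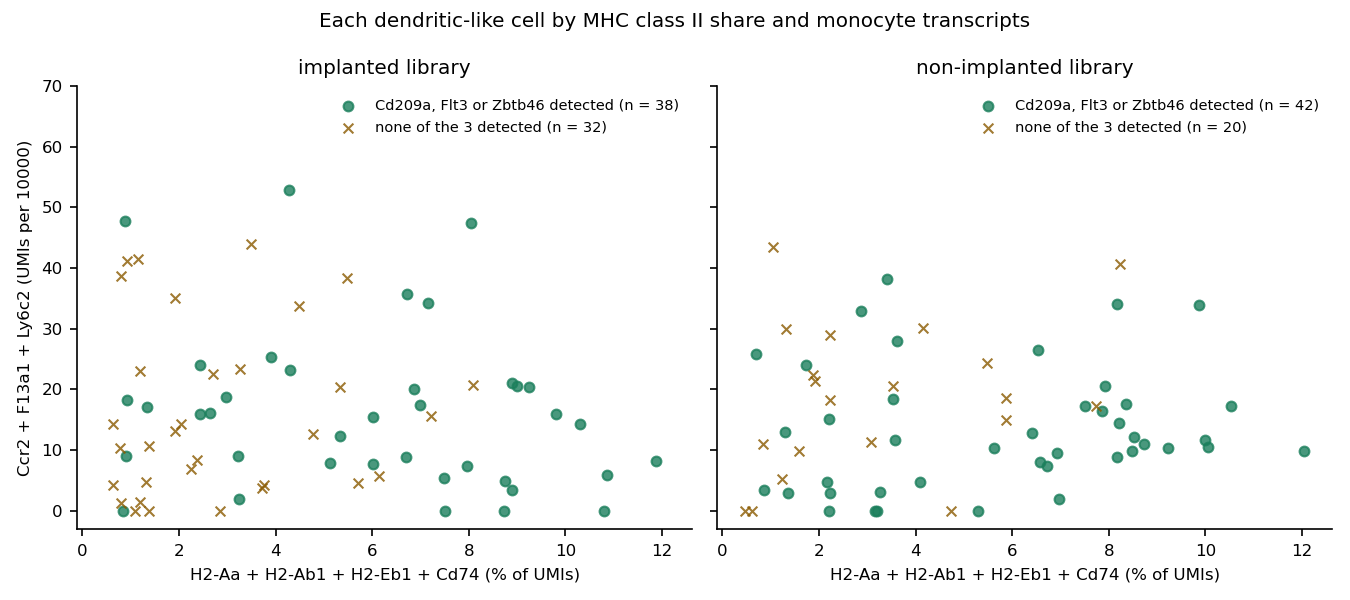
Each dendritic-like cell by the share of its UMIs from the 4 gate genes (horizontal axis, percent) and by Ccr2, F13a1 and Ly6c2 UMIs per 10000 (vertical axis), in the implanted (left) and non-implanted (right) library. Marker-positive cells (circles) spread to 11.9% and 12.04% on the horizontal axis, marker-negative cells (crosses) have medians of 2.14% and 2.24%, and monocyte transcripts show no order along the MHC class II share.

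The lists were then read across the 2 kinds of member, leaving out the 3 genes that define them. Of all 5598 genes measured, 1.25% were at least 2-fold higher in marker-positive members of both libraries and 1.27% in marker-negative members of both. With differences of any size counted, 1365 of the 5598 were higher in marker-positive members of both libraries and 1636 in marker-negative members of both. Of 12 migratory dendritic cell genes, 11 were higher in marker-positive members of both, 6 by at least 2-fold. Of 4 osteoclast genes, 3 were at least 2-fold higher in marker-negative members of both. Of 16 foreign body and lipid macrophage genes, 11 were higher in marker-negative members of both, 5 by at least 2-fold, and 2 in marker-positive members. Single cells held 100% of Fscn1 (migratory) and 94.9% and 100% of Ctsk (osteoclast) UMIs. C-type lectin receptors went both ways: of 15 measured genes, 7 were higher in marker-positive and 4 in marker-negative members of both libraries, and 5 of the 7 by at least 2-fold. Clec10a, a galactose-binding lectin, stood at 369 and 389 CPM in marker-positive and at 16.7 and 40.1 CPM in marker-negative members. Mgl2, its close relative, stood at 352 and 334 CPM against 4.17 CPM in the implanted marker-negative members and 0 UMIs in the non-implanted ones. Because the 2 genes are near copies, reads may have been split between them. Clec4b1 stood at 246 and 230 CPM against 33.4 and 53.5 CPM, and the mannose receptor gene Mrc1, which the macrophage list also holds, at 256 and 230 CPM against 79.3 and 80.2 CPM. On the other side, Clec4a2 stood at 113 and 62.6 CPM in marker-positive against 175 and 160 CPM in marker-negative members, and Clec4a3 at 389 and 162 CPM against 396 and 314 CPM.

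Of 11 measured genes that load and regulate MHC class II, 8 were higher in marker-positive members of both libraries and 1 in marker-negative members of both. Of 13 costimulatory and checkpoint genes, these counts were 6 and 2, with Cd86 on the marker-negative side at 734 and 662 CPM against 718 and 417 CPM. H2-Oa was detected in 13 of 38 and 22 of 42 marker-positive members, at 103 and 128 CPM, and in 0 of 32 and 1 of 20 marker-negative members. Klrd1, the CD94 subunit of a lectin-like receptor, stood at 123 and 164 CPM against 12.5 CPM and 0 UMIs. Dpp4, the peptidase CD26 of conventional dendritic cells, stood at 126 and 214 CPM against 37.5 and 53.5 CPM, and Slamf7 at 372 and 253 CPM against 100 and 114 CPM. The cells that gave these values also defined the kinds, so the ratios are descriptions.

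Of 13 measured classical monocyte genes, 9 were higher in marker-negative members of both libraries and 1 in marker-positive members of both, and of 12 macrophage genes these counts were 6 and 3. Over all 5598 genes measured these counts were 1636 and 1365. The differences were at least 2-fold in both libraries for 1 and 3 genes on the marker-negative side. Lyz2, the lysozyme gene of myeloid cells, stood at 16196 and 13045 CPM in marker-negative and at 8920 and 5844 CPM in marker-positive members. Apoe, a lipid carrier of macrophages, stood at 3651 and 3549 CPM against 1482 and 571 CPM. Csf1r, the receptor for macrophage colony-stimulating factor, stood at 688 and 809 CPM against 316 and 258 CPM. The order was the same in both libraries for each of these 3 genes.

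Of 8 measured genes of non-classical monocytes, the patrolling Ly6c-low form, 6 were higher in marker-negative members of both libraries and 1 in marker-positive members of both. Ace stood at 138 and 60.1 CPM in marker-negative against 36.6 and 26.1 CPM in marker-positive members, and Treml4 at 100 and 26.7 CPM against 16.6 and 5.22 CPM, which in the non-implanted library were 4 and 2 UMIs. Ear2 was mixed, at 108 and 13.4 CPM against 36.6 and 26.1 CPM. Ccr2, which brings classical monocytes out of the marrow, did not divide the kinds, at 1014 and 830 CPM in marker-positive and 960 and 989 CPM in marker-negative members. Both kinds were far from the C1q-positive barcodes in Plac8, which stood at 937 to 2019 CPM in the members and at 91.4 and 102 CPM in the C1q-positive barcodes.

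**Figure D3:**
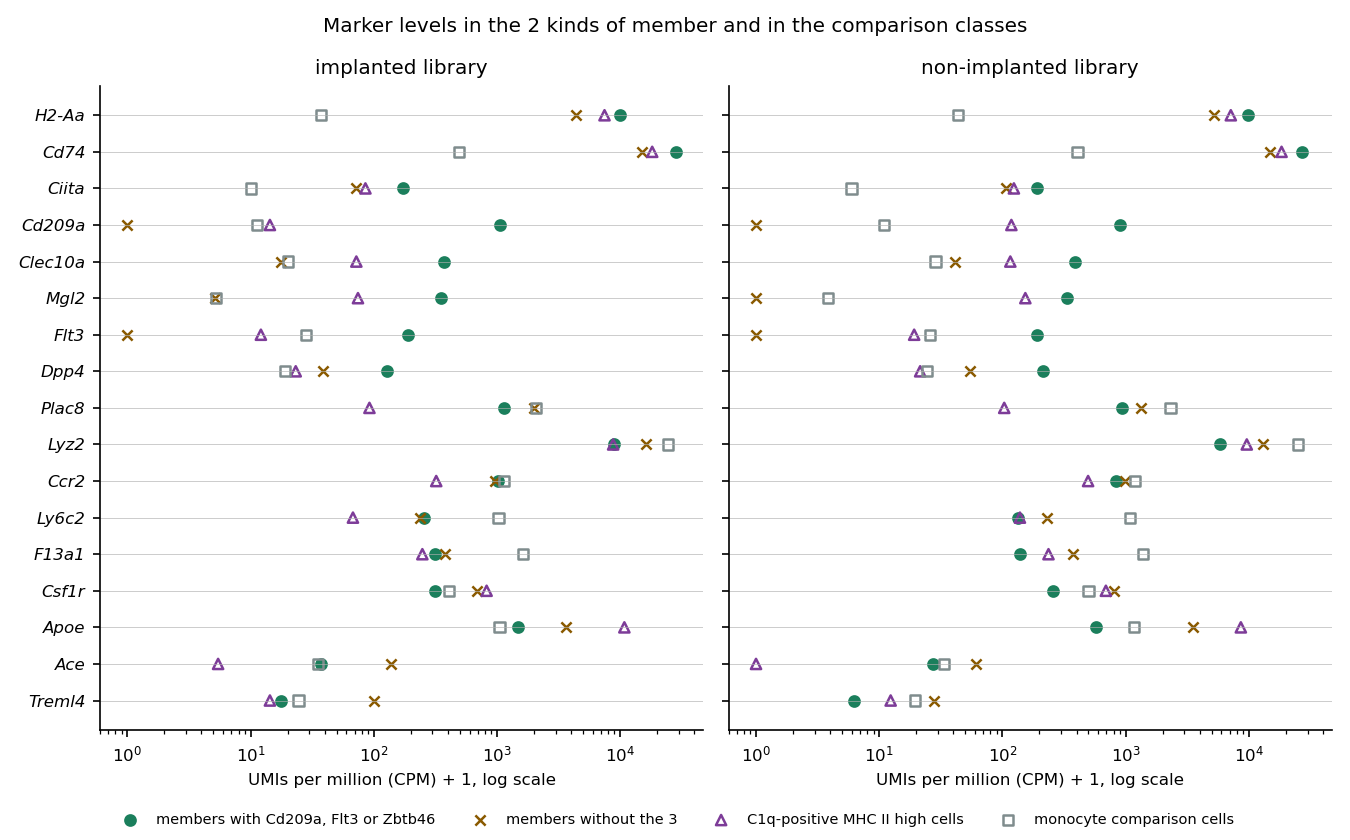
Level of 17 genes in CPM plus 1 (horizontal axis, log scale) in marker-positive members, marker-negative members, C1q-positive MHC class II high barcodes and monocyte comparison barcodes, by library. Cd209a and Flt3 are undetected in marker-negative members by definition, and Clec10a, Mgl2 and Dpp4 are lower there, while Lyz2, Apoe, Ace and Treml4 are higher.

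Against C1q-positive MHC class II high barcodes, the genes highest in members in both libraries included several lymphoid and dendritic cell genes. The osteoclast gene Ctsk was among them too, at 146 and 458 against 6.69 and 1.14 CPM. Whole lists went both ways. Conventional genes summed to 4260 and 5472 CPM against 3851 and 3643, and type 2 or monocyte-derived genes to 2427 and 2319 against 1359 and 1450. Type 1 genes summed to 440 and 794 CPM against 1034 and 826. Itgb7, an integrin subunit, stood at 146 and 176 CPM in members and at 0 UMIs and 12.5 CPM in the C1q-positive barcodes. Bcl11a, a transcription factor needed by dendritic cells and B cells, stood at 102 and 165 CPM against 2.23 and 11.4 CPM. Klrd1 stood at 74.0 and 118 CPM against 0 UMIs and 12.5 CPM, and the inhibitory receptor gene Btla at 59.2 and 61.9 CPM against 0 UMIs and 4.56 CPM. Among macrophage and chemokine genes, Pf4 stood at 3.70 and 24.4 CPM against 588 and 370 CPM, and Ccl12 had 0 UMIs in members against 221 and 227 CPM.

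The monocyte comparison barcodes were 230 implanted and 198 non-implanted MHC class II low cells with at least 5 UMIs of Ccr2, F13a1 and Ly6c2. Against them the members carried more of several lectin genes and of MHC class II genes outside the gate. Both classes were cut on the gate genes, so levels of other MHC class II genes describe that choice too. Acp5, Ctsk, Atp6v0d2 and Camp, genes of the osteoclast and granulocyte precursor lists, were also among the highest over these barcodes. Mgl2 stood at 198 and 240 CPM against 4.22 and 2.84 CPM, Clec10a at 213 and 291 CPM against 19.3 and 27.7 CPM, and H2-DMb1, which loads peptides, at 651 and 627 CPM against 46.4 and 66.0 CPM. Fn1 stood at 166 and 101 CPM against 1828 and 1764 CPM, and Chil3, a chitinase-like protein of monocytes and neutrophils, at 503 and 439 CPM against 2597 and 2616 CPM. Elane, a gene of early granule-forming precursors, stood at 1262 and 1489 CPM in the monocyte comparison barcodes, which are thus not purely monocytes.

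The question of the study's design was then asked of the members: which genes differed between implanted and non-implanted cochleae. A gene was called when the ratio of CPM plus 10 was at least 2-fold, among 5601 genes with at least 30 UMIs over both libraries. Of these genes, 99 were higher in the implanted members (1.77%) and 126 were lower (2.25%), 4.02% in either direction. The median log2 ratio was 0.02. In 33 of the 99 and 77 of the 126, a single cell held over 25% of the UMIs of the higher library, so such calls rest on few cells. The counts of called genes per list, given below, are to be read beside the 4.02% called over all genes. The gene and marker lists, those of other cell types included, overlap, and together they held 38 called genes. The share of the 38 among all list genes measured is not given here. Of the 38, 5 stayed at or past 2-fold under all of 22 alternatives to the gate, the filters and the scaling. These were Irf4, Cadm1, Cxcl2, Cxcl9 and Vcan. For Vcan the ratio rested on 31 implanted and 2 non-implanted UMIs (57.3 and 3.75 CPM). Among the 22, those that changed only the minimum number of UMIs per gene could not move a single gene's ratio. The 22 do not include the fits on 1 kind of member alone, in which Cxcl2 (0.70) and Vcan (0.66) were under 2-fold in marker-positive and Irf4 (-0.95) in marker-negative members, on the log2 scale.

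The gate genes differed little. H2-Aa stood at 7555 CPM in the implanted and 8596 CPM in the non-implanted members, H2-Ab1 at 5624 and 6468, H2-Eb1 at 5949 and 6936, and Cd74 at 22517 and 23488 CPM. Their median log2 ratio was -0.19 over all members, 0.04 over marker-positive members and -0.28 over marker-negative members. None of the 4 was called. These genes chose the members in both libraries, so the values are a description.

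Genes that load and regulate MHC class II showed 0 of 11 measured genes called in either direction, with a median log2 ratio of -0.32. H2-Oa stood at 57.3 and 93.8 CPM (log2 ratio -0.62) and H2-DMb2 at 24.05 and 56.3 CPM (-0.96). Lgmn, a lysosomal protease, stood at 516 and 289 CPM (0.82), and H2-DMa at 610 and 574 CPM (0.09). MHC class I and its loading genes had 0 of 20 called, with a median of 0.02.

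Among 13 measured costimulatory and checkpoint genes, which tune T cell activation, 1 was called higher and 0 lower, with a median log2 ratio of 0.22. The called gene was Pvr, a ligand of receptors on T and NK cells, at 81.4 and 35.7 CPM and detected in 27 and 11 members, with a log2 ratio of 1.00 that ran from 0.76 to 1.22 over the alternatives. Cd86, the main B7 ligand of these cells, stood at 725 and 486 CPM (log2 ratio 0.57), Cd80 at 113 and 95.7 CPM (0.22) and Cd40 at 57.3 and 99.5 CPM (-0.70).

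Transcription factors of dendritic cells had 0 of 19 called higher and 1 lower. Irf4, which drives type 2 and monocyte-derived dendritic cells, stood at 14.8 CPM in the implanted and 56.3 CPM in the non-implanted members (log2 ratio -1.42). It was detected in 8 and 15 cells, and the highest non-implanted cell held 33.3% of its UMIs. Batf3 stood at 70.3 and 93.8 CPM and Klf4 at 431 and 315 CPM. Irf8 had 0 UMIs in every barcode of both libraries, so its count could not be used.

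In the conventional dendritic cell list, 2 of 13 measured genes were called lower and 0 higher, with a median log2 ratio of -0.37. Besides Irf4, these were Kmo, an enzyme of tryptophan breakdown, at 40.7 and 99.5 CPM and in 9 and 24 members, with a log2 ratio of -1.38 to -0.92 over the alternatives. Over marker-positive members alone Kmo stood at 39.9 and 130 CPM, and over marker-negative members it went the other way, at 41.7 and 20.05 CPM. Dpp4 stood at 86.9 and 169 CPM (log2 ratio -0.88) and in marker-positive members at 126 and 214 CPM. The type 2 or monocyte-derived list, by contrast, had 0 of 9 called and a median of -0.02.

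Plasmacytoid genes had 3 of 10 measured genes called lower and 0 higher, with a median log2 ratio of -0.76, and among them Ly6d stood at 40.7 and 191 CPM. Without the members that held Xcr1, Ccr7 or Siglech UMIs, the plasmacytoid median was 0.14. Type 1 genes had 2 of 6 called lower, Cadm1 at 49.9 and 206 CPM and in 6 and 15 cells, and Cxcl9, with 0 UMIs in the implanted and 58.2 CPM in the non-implanted members. In the non-implanted library both stood higher in marker-negative than in marker-positive members, Cadm1 at 361 against 146 CPM and Cxcl9 at 127 against 31.3 CPM. A single non-implanted cell without Cd209a, Flt3 or Zbtb46 UMIs held 54.8% of the Cxcl9 UMIs. Genes of migratory dendritic cells had 2 of 12 called higher and 2 lower, with a median of 0.42, which was -0.25 without the highest cell of each gene.

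C-type lectin receptors, which bind sugars of microbes and dying cells, had 1 of 16 called, Ly75, with 85.4% of its implanted UMIs in the cell with 53 Ccr7 UMIs. Their median was -0.08, and 0.51 without members with over 1% S100a8 and S100a9 UMIs. Clec7a, the beta-glucan receptor Dectin-1, stood at 851 and 492 CPM, with log2 ratios of 1.10 in marker-positive and 0.20 in marker-negative members. Clec4a3 had log2 ratios of 1.22 and 0.33 in the same order.

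Genes of lipid-laden and foreign body macrophages had 1 of 16 called higher and 1 lower, with a median of 0.14. Plin2, which coats lipid droplets, stood at 448 and 190 CPM, with log2 ratios of 0.79 in marker-positive and 1.75 in marker-negative members. Mmp9 was lower, with 70.8% of its non-implanted UMIs in 1 cell.

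Among 9 measured toll-like receptor genes and 11 growth factor receptor genes, 1 each was called. Tlr2, which senses bacterial lipopeptides, stood at 240 CPM in the implanted and 101 CPM in the non-implanted members (log2 ratio 1.17, ratio 2.37, 1.72 to 3.32), in 48 and 23 cells. No cell held over 11.1% of its UMIs, and its log2 ratio ran from 0.87 to 1.59 over the alternatives, under 2-fold in 3 of them. It was higher in the implanted library among marker-positive members (213 and 88.7 CPM) and among marker-negative members (275 and 134 CPM). Ifnar2, a subunit of the type I interferon receptor, stood at 83.2 and 191 CPM (log2 ratio -1.11), in 24 and 33 cells, and was lower in both kinds of member, with log2 ratios of -1.47 to -0.76 over the alternatives. Interferon response genes had 0 of 13 called and a median of 0.12.

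Feedback genes of NF-kappa B, a signalling pathway switched on by such receptors, had 1 of 16 called. The called gene was Nfkbie, an inhibitor of the pathway, at 124 and 52.5 CPM and in 36 and 19 cells, with log2 ratios of 1.03 in marker-positive and 1.498 in marker-negative members. Nfkbia stood at 1023 and 599 CPM (0.76), Rel at 1010 and 640 CPM (0.65) and Relb at 196 and 93.8 CPM (0.99). Over the alternatives the log2 ratio of Nfkbie ran from 0.74 to 1.25. The list's median was 0.25. The glucocorticoid response list had 0 of 11 called and a median of -0.02, with Tsc22d3, a standard target of the hormone receptor, at 141 and 165 CPM.

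Chemokine ligands went both ways, with 3 of 11 called higher and 3 lower. Cxcl2, which attracts neutrophils, stood at 614 and 203 CPM in 20 and 10 cells, and Ccl2, which attracts monocytes, at 148 and 60.05 CPM in 17 and 6 cells. For Ccl2 the difference lay in marker-negative members, at 246 and 6.68 CPM, against 69.8 and 80.9 CPM in marker-positive members. A single implanted cell held 31.6% of the Cxcl2 and 37.5% of the Ccl2 UMIs. Cxcl10 was called on 5 and 3 cells, with 85.1% and 80.6% of UMIs in 1 cell. The list's median log2 ratio was 0.49 over all members and -0.03 over marker-positive members. On the lower side, Ccl22 (4 and 3 cells), Ccl5 (5 and 7 cells) and Cxcl9 (0 and 4 cells) rested on a few cells too.

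Non-classical monocyte genes had 3 of 8 measured genes called higher and 0 lower, with a median log2 ratio of 0.64: Treml4 at 53.6 and 11.3 CPM, Ear2 at 68.4 and 22.5 CPM, and Ace at 81.4 and 35.7 CPM. Within marker-positive members the log2 ratios of these genes were 0.81, 0.37 and 0.37. Within marker-negative members they were 1.58, 2.34 and 1.07, on 4, 2 and 9 non-implanted UMIs. Classical monocyte genes had 1 of 13 called higher, Vcan, with a median of 0.47, and macrophage genes, among which the Fc receptor gene Fcgr1 was called higher at 104 and 43.2 CPM, had a median of 0.14. The macrophage median lies within the quartiles of all genes measured, -0.25 to 0.27. The share of marker-negative members among all members was 45.7% with and 32.3% without the implant (difference 13.5 points, -3.19 to 29.0). Over the alternatives the log2 ratio of Ace ran from 0.40 to 1.46 and that of Fcgr1 from 0.69 to 1.21. With a gate of at least 100 UMIs the non-classical median was 0.22.

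**Figure D4:**
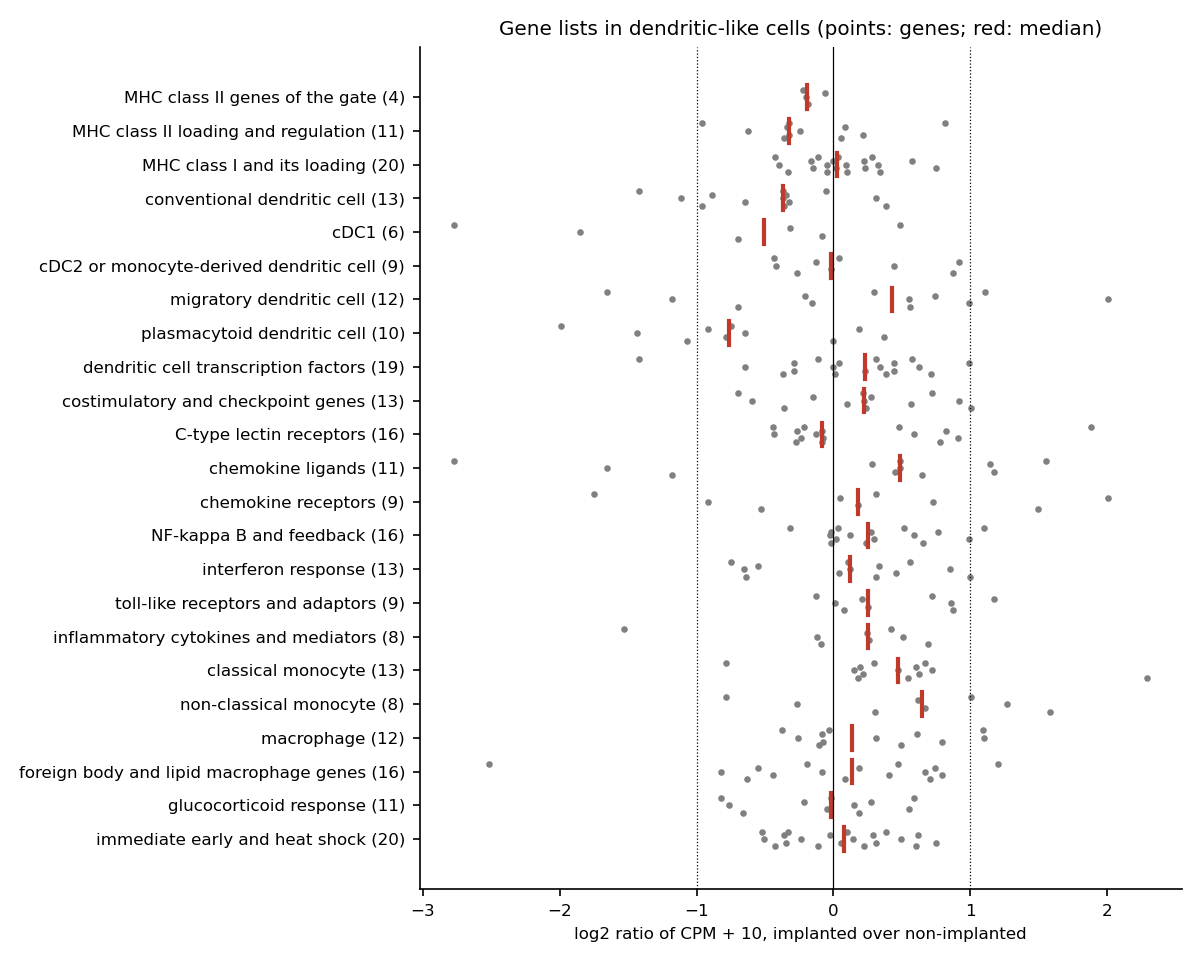
Log2 ratio of CPM plus 10, implanted over non-implanted (horizontal axis), for the measured genes (grey points) of 23 lists in dendritic-like cells, with the list's median as a red bar and 2-fold as dotted lines. The number of measured genes stands beside each list, and medians run from -0.76 for plasmacytoid genes to 0.64 for non-classical monocyte genes.

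Genes at the ends of the range, each spread over at least 5 cells and with no cell above 25% of the higher library's UMIs, were chosen by rank. Of these 24 genes, 12 stayed past 2-fold under all 22 alternatives, and 6 of these did so in each kind of member as well: F10, Msr1, Pde7b, Ccrl2, P2ry10 and Sept6. Here too, the alternatives on the minimum number of UMIs could not change a gene's ratio. F10, coagulation factor X (chromosome 8, 13037308 to 13056676, plus strand, GRCm38), had the highest ratio, at 102 and 15.0 CPM (log2 ratio 2.16, ratio 6.78, 3.21 to 16.5), in 18 and 6 cells. Msr1, a scavenger receptor (chromosome 8, 39581685 to 39642673, minus strand), stood at 70.3 and 15.0 CPM in 18 and 5 cells. Ccrl2, an atypical receptor that binds chemerin, stood at 255 and 84.4 CPM in 29 and 15 cells. All 3 were higher in the implanted library in marker-positive and in marker-negative members.

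Trim25, a ubiquitin ligase of antiviral sensing (chromosome 11, 88999376 to 89020293, plus strand), was among the most widely detected of these genes, at 453 and 176 CPM in 53 and 37 cells (log2 ratio 1.31). Its difference was larger in marker-positive members (489 and 138 CPM) than in marker-negative members (409 and 274 CPM). Mpp7, a scaffold protein, stood at 564 and 218 CPM, and its difference lay in marker-positive members (701 and 167 CPM, against 392.2 and 348 CPM). Without the members that held Xcr1, Ccr7 or Siglech UMIs the log2 ratio of Mpp7 was 0.87 in place of 1.33. That of Trim25 was 0.99 with a gate of at least 30 UMIs. The remaining 7 genes of the upper end were Gas2l3, Treml4, the phosphodiesterase gene Pde7b, the lysophospholipid receptor gene P2ry10, Ear2, Sestd1 and the insulin receptor substrate Irs2, with log2 ratios of 1.25 to 1.62.

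At the lower end, Sept6, a septin of the cytoskeleton (X chromosome, 36911326 to 36991794, minus strand), stood at 22.2 CPM in the implanted and 84.4 CPM in the non-implanted members (log2 ratio -1.55), in 8 and 29 cells. Lrrc58 stood at 38.8 and 120 CPM in 17 and 27 cells, with a log2 ratio of -0.89 in marker-positive members alone, and Ly6a, the stem cell antigen Sca-1, at 29.6 and 101 CPM in 4 and 12 cells. Arsb, a lysosomal sulfatase, stood at 59.2 and 169 CPM, and Bag3, a co-chaperone induced by heat and stress, at 107 and 266 CPM. All of these genes were lower in both kinds of member. Arsb had a log2 ratio of -0.44 with no limit on the Spp1 set, and Ly6a of -0.58 and Bag3 of -0.76 without the members that held Xcr1, Ccr7 or Siglech UMIs. The other 7 genes were Zdhhc14, Trak2, Sh3pxd2a, Abcg3, BC035044, Ddhd2 and Supt20, with log2 ratios of -1.43 to -1.26.

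**Figure D5:**
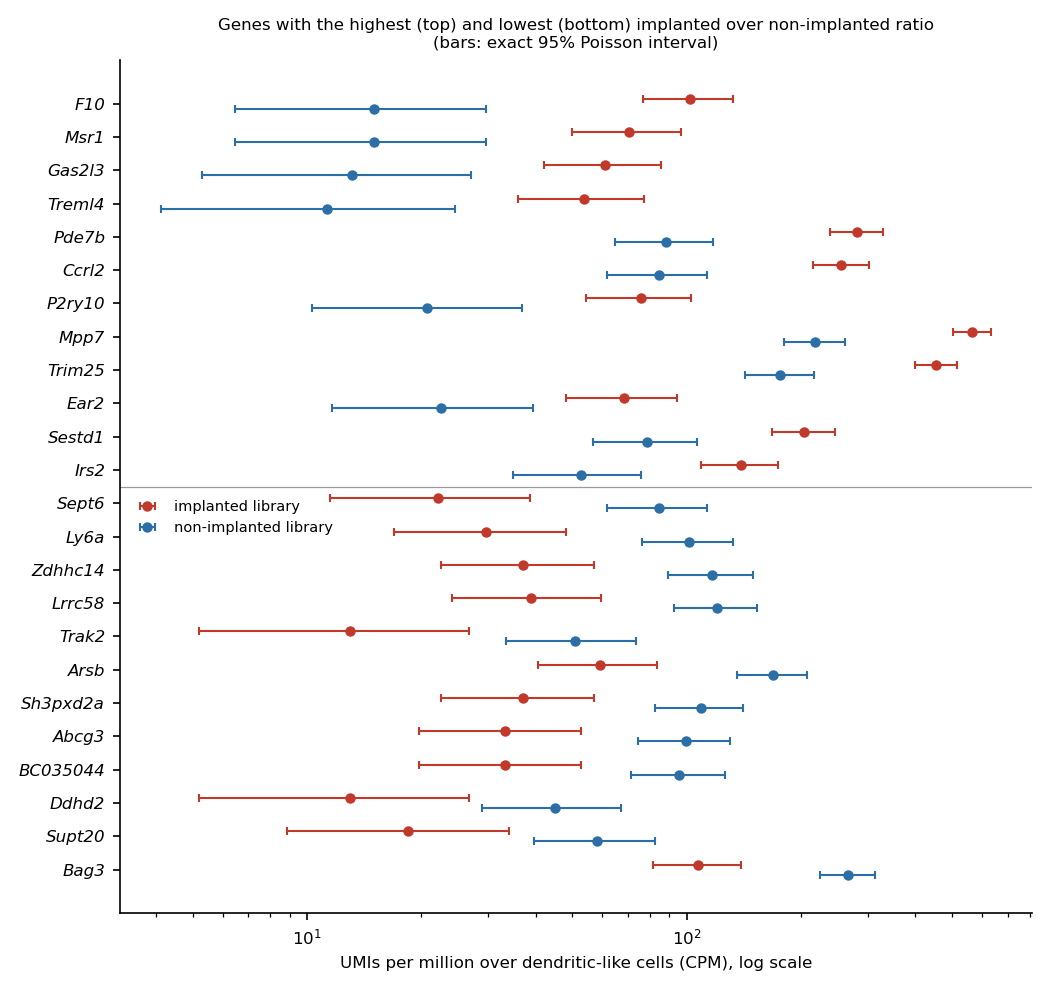
Level in CPM over all dendritic-like cells (horizontal axis, log scale) of the 12 genes with the highest and the 12 with the lowest implanted over non-implanted ratio, with exact 95% Poisson intervals as bars. F10 stands at 102 against 15.0 CPM and Sept6 at 22.2 against 84.4 CPM.

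Some members carried genes of other cells, and the lists of those cells were read for that reason. S100a8 and S100a9, the main transcripts of neutrophils, had a median of 0.0934% and 0.0869% of a member's UMIs, but exceeded 1% in 7 members of each library, with maxima of 22.7% and 15.7%. The list of mature neutrophil genes summed to 18469 and 26005 CPM over members, and 4 of its 8 measured genes were called lower in the implanted members. A single implanted member held 932 of the 947 UMIs of Elane, Mpo, Prtn3 and Ctsg, with 376 gate UMIs and 9 Cd209a UMIs. A single cell in each library held 75 of 79 and 244 of 244 UMIs of Ctsk, the osteoclast protease, and no Cd209a, Flt3 or Zbtb46 UMI. Of the cells with the highest doublet scores (84 implanted and 102 non-implanted barcodes), 0 and 2 were members. Of the T, NK or innate lymphoid list, Cd3e, Cd3d, Trac and Trbc2 had 0 UMIs in members, and the whole list had 28 and 16 UMIs. The stromal and cochlear list had 15 and 34 UMIs.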

How the data were processed

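Gene counts were deposited as 1 filtered 10x matrix per library and, per the file headers, were written by Cell Ranger 3.0.1; each value is a whole number of UMIs. The submitters' processing notes name Cell Ranger, Seurat, mm10 and GRCm38; the sources used here do not give settings or annotation. The 48709 gene rows were summed where a symbol had more than 1 row (116 symbols). Gene positions were taken from GENCODE M21 (GRCm38) and promoters from RefSeq. Irf8, Igkc, Myd88, Ifi47 and Igtp were at 0 in all barcodes.

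Members and lists were chosen with earlier results of these data known. The members' counts were summed per library, divided by their total and given as CPM. A gene was measured at 30 UMIs over both libraries and called at a 2-fold ratio of CPM plus 10. Intervals (95%) were Clopper-Pearson for shares, Newcombe for differences, Poisson for CPM and exact conditional for ratios. They take UMIs as independent and cover counting error only, which makes them too narrow for genes held by few cells. With 1 library per group no test across samples was made. Named genes were the gate and resolving genes, list members, the 12 highest and 12 lowest ratios found in at least 5 cells of the higher library with no cell above 25% of its UMIs, and the 12 highest over C1q-positive and over monocyte comparison barcodes. Ribosomal, mitochondrial, immunoglobulin, sex-linked marker, unnamed and pseudogene models were left out. No doublets were removed; leaving out the barcodes with the highest Scrublet scores was an alternative. Neutrophil barcodes held at least 50 UMIs of S100a8 and S100a9 and under 5 of the gate.

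For the comparison of members, counts of 5548 genes were simulated from the members' pooled profile, with 200 genes given a 4-fold change. In them 100% of the higher and 95% of the lower measured genes passed 2-fold, as did 0.261% of unchanged genes. The simulated counts held no variation between cells, so 0.261% is not the rate of false calls in the data. Tools were scanpy 1.11.5, matplotlib 3.10.9, pandas 2.3.3, scipy 1.17.1 and numpy 2.4.6 under Python 3.11.15, and R 4.3.3 with edgeR 4.0.16, used for TMM factors only.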

Additional observations from a re-analysis of the deposited data

How the results depend on the processing

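No paired analysis was possible because each group had 1 library and no replicate number, and for the same reason no replicate could be left out. The implanted minus non-implanted share of members was between 0.0112 and 0.597 points under every alternative run. Of 99 genes higher and 126 lower, 52 and 70 were called with a pseudocount of 20 CPM, 53 and 57 with at least 60 UMIs, and 199 and 322 without a filter. The lower count was 219 with at least 15 UMIs and 78 without the member with the most UMIs of each gene. The following are median log2 ratios of lists. In marker-negative members alone they were 0.42 for conventional dendritic cell, -0.068 for type 1, 1.41 for plasmacytoid, -0.28 for gate, 0.10 for MHC class II loading, 0.89 for chemokine ligand, 1.38 for cell cycle and 0.42 for immediate early genes. In marker-positive members alone they were -2.62 for plasmacytoid, 0.039 for gate and -0.033 for chemokine ligand genes. Migratory genes were at -0.88 with the gate genes at 1% of UMIs or more and at -0.25 without the highest member of each gene. Plasmacytoid genes were at -0.0783 with no Cd79 UMI allowed and at 0.14 without members holding Xcr1, Ccr7 or Siglech. Non-classical monocyte genes were at 0.22 with a gate of at least 100 UMIs. Gate genes were at -0.0778 and -0.113 with gates of 30 and 100 UMIs, at -0.26 with no Cd79 UMI allowed, and at -0.26 with 500 genes and 5% mitochondrial UMIs as limits. Leaving out members with S100a8 and S100a9 above 1% gave 0.51 for C-type lectin and 1.10 for inflammatory genes. Cell cycle genes were at -0.28 without the members rich in Elane or Ctsk. Called medians turned sign for 2 lists of other cells. Osteoclast genes, at -1.29, were at 0.90 with the gate genes at 1% of UMIs, 0.43 with no limit on the Spp1 set and 0.63 with 500 genes and 5% mitochondrial UMIs. Granulocyte precursor genes, at 1.31, were at -1.24 with no Cd79 UMI, -0.0088 with no limit on the Spp1 set, -0.21 without S100a8-rich members, -0.30 with at least 60 UMIs, -0.91 without the highest member of each gene and -0.89 without members rich in Elane or Ctsk. Committed precursor genes, at 0.93, were at -0.0783 with no Cd79 UMI, -0.36 without the highest member and -0.32 without members rich in Elane or Ctsk, and mature neutrophil genes, at -0.82, were at 0.014 without S100a8-rich members. Single list genes turned as well. With the gate genes at 1% of UMIs the log2 ratios were 4.12 for Ctsk, -1.40 for Cxcl10 and -2.996 for Fscn1, and with a gate of 100 UMIs -1.14 for Cxcl10. With no limit on the Spp1 set they were 0.47 for Ctsk and 0.27 for Mmp9. With 500 genes and 5% mitochondrial UMIs Ctsk was at 3.97. Without S100a8-rich members they were 0.70 for Acod1, 0.61 for Egln3, 0.46 for Hdc, 0.28 for Ltf, 0.12 for Mmp8 and -0.015 for Ms4a3, which was at -0.010 with no Cd79 UMI. Without the highest member Ctsk was at 0.80 and Egln3 at 0.39. Without high doublet scores Egln3 was at 0.69, without Elane- or Ctsk-rich members Ctsk was at 0.85, and without Xcr1, Ccr7 or Siglech members Ly6d was at 0.48. In marker-positive members alone Ccl2 was at -0.19, Mki67 at -0.087 and Ctsk at 1.00. In marker-negative members alone Cox6a2 was at 2.94, Egln3 at 1.17, Kmo at 0.78, Ltf at 3.83 and Pacsin1 at 1.81. The cause was not tested where the construction does not show it. The alternatives with only marker-positive or only marker-negative members, and those without Elane- or Ctsk-rich members, were chosen after seeing the data. Each list's median was set against a span from the median of its genes' lower interval bounds to the median of their upper bounds. That span is built from intervals of single genes and is not an interval of the median itself. Of 669 medians of the lists compared, 646 stayed within the span and 68 had the other sign. Of 115 medians of other cell types and the given markers, these were 86 and 14. A member's depth limits detection, and Xcr1, Ccr7 and Siglech rest on 0 to 5 cells.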
